A study of Mus musculus with 42 samples.

Results

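The genes described here are 10 odorant-metabolizing enzymes listed for the supporting cells of the main olfactory epithelium: Cyp2g1, Cyp2a5, Cyp2f2, Cyp1a2, Cyp1b1, Ugt2a1, Aldh1a7, Gstm1, Gstm2 and Ephx1. They were listed by name and not by a cutoff on a measured value, though earlier results of these data were known by then. All 10 were found among the 44674 genes of the deposited table. All 10 also passed the filter on low counts, which kept 21168 genes for testing. The libraries came from male C57BL/6NCrl mice aged 8 to 12 weeks that spent 1 h with no odour or with the odour of a diet. NCD is the normal chow diet, Bacon is a diet matched to chow in its nutrients and flavoured with bacon, and HFD is a lard-based high-fat diet. The labels name no transgene or deletion, and the groups are told apart by the odour alone. Each of the 21 pools held 4 epithelia: 5 pools had no odour, 6 had NCD, 5 had Bacon and 5 had HFD. From each pool, ribosomes were captured with an antibody against phosphorylated ribosomal protein S6, and the RNA of this pulldown was sequenced beside the input RNA of the same pool, giving 42 libraries. The study used this capture to find olfactory receptors activated by each odour, and here the same libraries were used to ask how the enzyme genes behaved in the tissue and in the pulldown.

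Odorants that reach the nose are lipophilic, and the epithelium holds enzymes of the kind that clear drugs in the liver. Cytochromes P450 oxidize them, epoxide hydrolases and aldehyde dehydrogenases process the products, and UDP-glucuronosyltransferases and glutathione S-transferases attach polar groups so that they can be carried away. In the olfactory mucosa these enzymes are known from sustentacular cells, the supporting cells around the neurons, and from the ducts and acini of Bowman's glands. Phosphorylation of S6 marks ribosomes of cells with recent activity, which is why its capture is used to enrich the RNA of stimulated neurons.

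Depth was even, with 24839555 to 36781553 estimated counts in the inputs and 25392812 to 36738330 in the pulldowns, and the 10 genes took 1.10% to 1.48% of the input counts without odour and 1.36% to 1.81% with an odour. Of the counts outside ribosomal RNA they took a mean of 1.81% without odour and 2.01%, 1.81% and 1.86% under NCD, Bacon and HFD. Levels are given as CPM, the counts scaled to a common library size with TMM factors, which correct for differences in composition. Ribosomal RNA took 21.7% to 32.2% of the counts in the inputs without odour and 9.75% to 21.9% in the inputs with an odour. Defining markers of the supporting cells were present, with Cbr2 at 2303, Sec14l3 at 1775 and Ermn at 160 CPM in the mean of the inputs without odour. The markers of sustentacular cells, Bowman's glands and mature sensory neurons, 10 for each, had counts in all 42 libraries, as the label of the tissue has it, but bulk RNA does not show which of these cells the enzyme RNA came from. In such samples, fewer cells of a type and less RNA per cell cannot be told apart.

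Several of these genes have close copies in the genome, and the sharing of reads between copies bears on how their levels can be read. Cyp2g1 (chr7:26808892-26821205), Cyp2a5 (chr7:26835305-26843548) and Cyp2f2 (chr7:27119909-27133660) lie near each other on the plus strand of GRCm38, in a cluster of Cyp2 genes. Gstm1 (chr3:108012255-108017973) and Gstm2 (chr3:107981702-107986453) are neighbours on the minus strand. The others are Cyp1a2 (chr9:57676937-57683703), Cyp1b1 (chr17:79701537-79715061), Ugt2a1 (chr5:87459490-87490871), Aldh1a7 (chr19:20692953-20727562) and Ephx1 (chr1:180976210-181020904), all on the minus strand. The coding sequences of Cyp2a5 and Cyp2a4, a gene of the same cluster, are 98.4% identical, with 23 differences in 1482 bases, and 23.2% of their windows of 75 bases, the length of a read, are the same in both. A window with 1 difference, the median over all windows, is shown to illustrate how little tells them apart, with the differing base in capitals. It lies at chr7:26835364-26835438 in Cyp2a5 and at chr7:26307218-26307292 in Cyp2a4, both on the plus strand of GRCm38 and within a coding exon.
Cyp2a5: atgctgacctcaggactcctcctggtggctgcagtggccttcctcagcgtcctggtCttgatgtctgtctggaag
Cyp2a4: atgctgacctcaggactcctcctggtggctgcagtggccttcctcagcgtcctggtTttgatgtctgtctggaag
Gstm1 and Gstm2 are farther apart, at 85.9% identity with 92 differences in 654 coding bases, and none of their windows of 75 bases is shared. A window with 10 differences, the median over all windows, is shown to illustrate how reads of this pair can be told apart, at chr3:108017352-108017426 for Gstm1 and chr3:107986035-107986109 for Gstm2, both on the minus strand.
Gstm1: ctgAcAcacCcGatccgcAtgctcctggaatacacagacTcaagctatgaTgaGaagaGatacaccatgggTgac
Gstm2: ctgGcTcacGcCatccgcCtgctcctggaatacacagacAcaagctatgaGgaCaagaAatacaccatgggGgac

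Of all runs of 31 bases in its transcripts, 97.8% in Ugt2a1 also occurred in another gene, 68.7% in Ugt2a2, which shares its later exons. This share was 54.6% in Cyp2a5, 28.8% in Gstm1, 13.8% in Aldh1a7, 12.2% in Gstm2, 10.9% in Cyp2f2, 7.67% in Cyp1a2, 6.87% in Cyp2g1 and 3.25% in Ephx1, and it was 0 in Cyp1b1. The values of Ugt2a1 and Cyp2a5 therefore rest in large part on how the authors' estimation divided reads between copies, and they are uncertain to that degree. Cyp2a4 itself was assigned 4.16 CPM in the mean of the inputs without odour, against 2339 for Cyp2a5, and Ugt2a2 was assigned 271 against 1122 for Ugt2a1.

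The promoters, from 250 bases before to 50 after a start site, were read from RefSeq on GRCm38.p6, where 9 of the 10 genes had an entry, Gstm1 with a pair of start sites. They were searched on both strands for GCGTG, the core to which the aryl hydrocarbon receptor binds, and for TTGGC, the recognition core of nuclear factor I. GCGTG occurred in 2 of the 9 genes, Gstm1 and Cyp1b1, and in 32.4% of the 32851 mouse promoters in the table. TTGGC occurred in 7 of the 9, all but Gstm1 and Cyp2f2, and in 46.7% of all promoters. The promoters of Gstm1 (chr3:108017924-108018223, minus strand) and Gstm2 (chr3:107986371-107986670, minus strand) are shown, since the inputs of these neighbours are compared under Bacon further on, and that of Cyp2a5 (chr7:26835089-26835388, plus strand) as an example of the chromosome 7 cluster. Capitals mark the matches, which read as the reverse complement where the match is on the other strand.
Gstm1 promoter: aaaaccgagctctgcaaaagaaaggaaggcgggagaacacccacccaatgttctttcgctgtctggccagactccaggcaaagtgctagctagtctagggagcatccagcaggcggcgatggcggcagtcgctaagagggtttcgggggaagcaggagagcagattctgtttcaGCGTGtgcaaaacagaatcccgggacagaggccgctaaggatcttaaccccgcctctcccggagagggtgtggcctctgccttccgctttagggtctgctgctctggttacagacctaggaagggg
Gstm2 promoter: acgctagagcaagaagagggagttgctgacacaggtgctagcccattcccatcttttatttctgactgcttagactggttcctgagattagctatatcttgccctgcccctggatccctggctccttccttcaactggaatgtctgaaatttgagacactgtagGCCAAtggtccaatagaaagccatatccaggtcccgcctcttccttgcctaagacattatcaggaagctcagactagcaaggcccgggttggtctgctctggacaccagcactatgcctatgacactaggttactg
Cyp2a5 promoter: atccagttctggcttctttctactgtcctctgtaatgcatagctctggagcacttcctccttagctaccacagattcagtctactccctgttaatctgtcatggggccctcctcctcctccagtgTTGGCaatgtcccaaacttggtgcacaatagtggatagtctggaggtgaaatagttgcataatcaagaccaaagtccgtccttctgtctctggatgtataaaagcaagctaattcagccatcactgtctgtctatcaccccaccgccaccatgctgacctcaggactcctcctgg
A match is a description of these letters, and binding was not measured.

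In the input RNA, the enzymes spanned more than 3 orders of magnitude per length of transcript. Gstm1, a glutathione S-transferase, was highest at 3451 ± 303 CPM per kb of exon (SD over the 21 inputs), and Cyp2g1, a P450 made almost only in the olfactory mucosa, followed at 1790 ± 211. Cyp2a5, the mouse counterpart of nasal CYP2A13, stood at 1073 ± 119 and Cyp2f2, a P450 of the airway that oxidizes naphthalene, at 980 ± 96.7. Ugt2a1, the olfactory glucuronosyltransferase, was at 444 ± 33.1 and Cyp1a2, better known from liver, at 243 ± 25.6. Gstm2 was at 98.3 ± 19.5, Ephx1, the microsomal epoxide hydrolase, at 55.3 ± 7.05 and Aldh1a7, an aldehyde dehydrogenase, at 54.8 ± 4.26 CPM per kb. Cyp1b1, a P450 of mesenchymal and vascular cells in many tissues, was lowest at 1.01 ± 0.192 CPM per kb. On the log2 scale, neighbours in this order differed by more than the spread of their difference over the inputs, except for Ephx1 and Aldh1a7. Ephx1 and Aldh1a7 differed by 0.01 ± 0.12 (SD), with Ephx1 higher in 9 of 21 inputs, and the next closest pair, Cyp2a5 and Cyp2f2, differed by about its spread, 0.13 ± 0.13, with Cyp2a5 higher in 18 of 21.

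**Figure D1:**
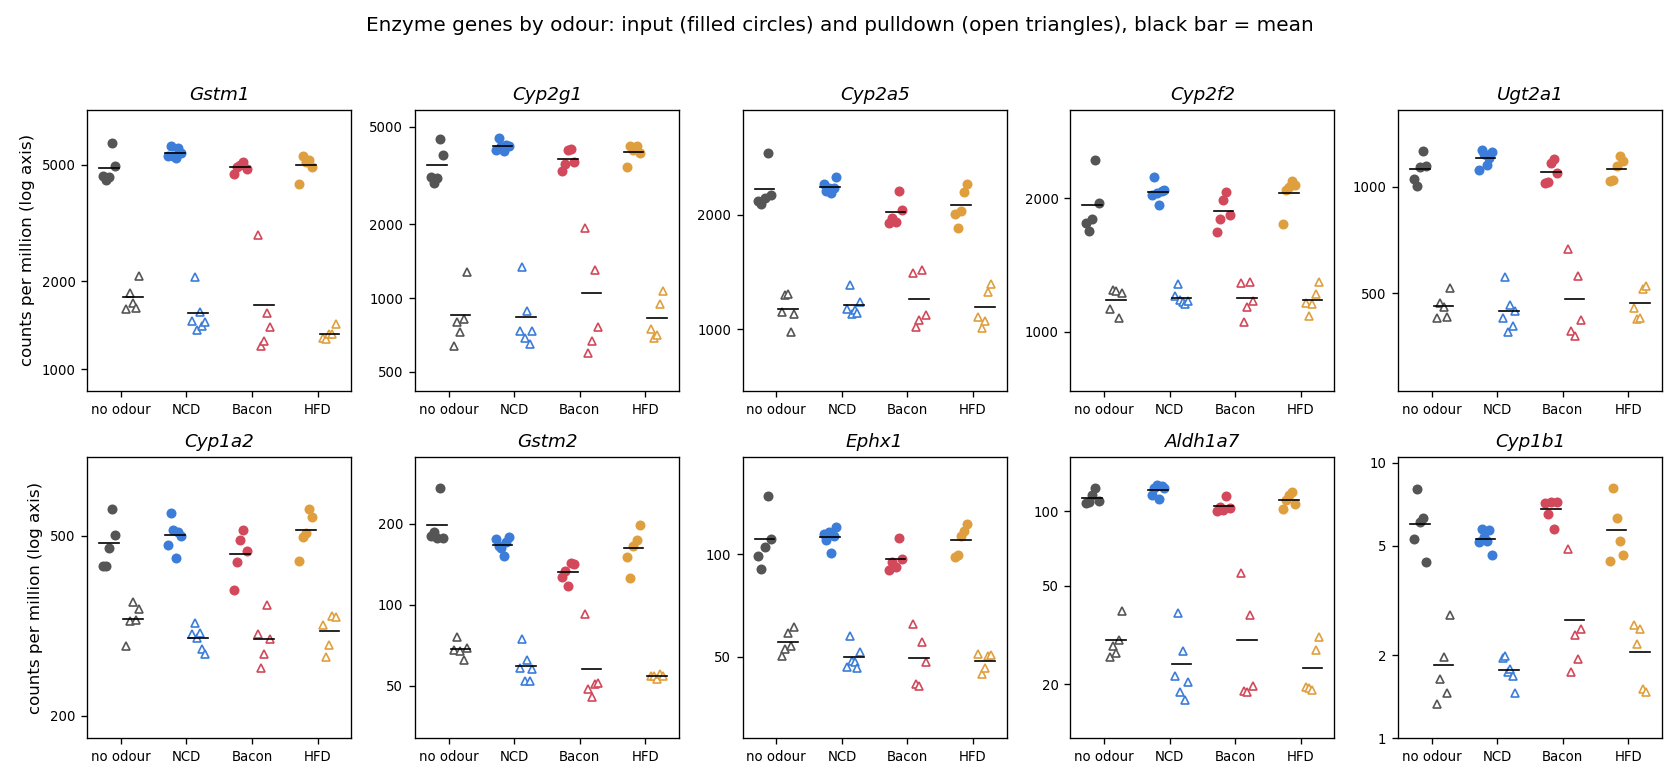
CPM (log axis, a separate range for each gene) of the 10 enzyme genes in each input library (filled circles) and pulldown library (open triangles), by odour, with 5 pools without odour, 6 with NCD, 5 with Bacon and 5 with HFD. Black bars are group means. Pulldown values lie below input values for the genes, most widely for Cyp2g1 and Aldh1a7, and in the Bacon pulldowns 1 library, replicate 1, lies far above the others for Gstm1, Gstm2 and Cyp1b1.

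Without odour, all 10 enzymes were lower in the pulldown than in the input of the same pool. Cyp2g1 was the most depleted, at 24.0% of its input level, and Cyp1a2 the least, at 68.3%. The median log2 difference of the 10 genes was -1.38, while that of all genes tested was 0.01. With edgeR's quasi-likelihood test, 10 of 10 genes were called lower at an adjusted p under 0.001, and the same was true of 16% of all genes tested. In either direction 35.8% of all genes were called.

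Cyp2g1 showed the depletion most plainly. Its input levels without odour were 3107, 2945, 3104, 4447 and 3823 CPM in replicates 1, 2, 3, 4 and 6, and its pulldown levels were 637, 798, 725, 821 and 1276 CPM. The lowest input lay far above the highest pulldown. The log2 difference was -2.06 (SE 0.21, adjusted p = 8.68e-08). Gstm1 had inputs of 4575, 4439, 4538, 5939 and 4947 CPM and pulldowns of 1610, 1819, 1678, 1624 and 2076 CPM. Its log2 difference was -1.47 (SE 0.13, adjusted p = 2.33e-09), again with no overlap.

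Aldh1a7, which is similar to the retinaldehyde dehydrogenases, fell in the pulldown nearly as far as Cyp2g1. Its inputs were 108, 109, 117, 124 and 110 CPM and its pulldowns 25.7, 28.4, 26.7, 30.2 and 39.5 CPM, and the log2 difference was -1.93 (SE 0.22, adjusted p = 4.28e-07). Gstm2 had inputs of 179, 186, 177, 272 and 177 CPM and pulldowns of 67.9, 75.7, 67.5, 62.6 and 69.0 CPM, and the log2 difference was -1.51 (SE 0.14, adjusted p = 6.71e-09). For both genes the input of replicate 4 was the highest of its group. Cyp1b1 had inputs of 5.29, 8.03, 6.09, 6.30 and 4.38 CPM and pulldowns of 1.33, 1.64, 1.97, 1.46 and 2.81 CPM, with a log2 difference of -1.69 (SE 0.20, adjusted p = 6.78e-08). It rested on as few as 31 counts in a pulldown, so that it was the least precise of the 10 per library.

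The glucuronosyltransferase Ugt2a1 ranged from 1007 to 1265 CPM in the inputs and from 426 to 518 CPM in the pulldowns, a log2 difference of -1.28 (SE 0.10, adjusted p = 5.56e-11). Ephx1 ranged from 90.2 to 148 CPM and from 50.2 to 61.2 CPM (log2 difference -0.99, SE 0.09). Cyp2a5 had inputs of 2180, 2138, 2218, 2912 and 2249 CPM and pulldowns of 1113, 1233, 1239, 983 and 1094 CPM (log2 difference -1.04, SE 0.08). Cyp2f2 ranged from 1688 to 2432 CPM and from 1076 to 1244 CPM (log2 difference -0.69, SE 0.08), and Cyp1a2 from 428 to 573 CPM and from 286 to 357 CPM (log2 difference -0.55, SE 0.07, adjusted p = 5.65e-07). The inputs and pulldowns did not overlap for any of the 10 genes, and all 10 stayed called when any single pool was left out. The share of all genes without such an overlap was not counted.

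The depth of the depletion differed among the enzymes. Over all 21 pools, whatever the odour, the mean log2 ratio of pulldown to input was -2.17 ± 0.47 (SD) for Cyp2g1 and -2.15 ± 0.49 for Aldh1a7, and these neighbours differed by 0.02 ± 0.14. Gstm1 followed at -1.72 ± 0.34, above Aldh1a7 in 19 of 21 pools. Cyp1b1, Gstm2 and Ugt2a1 stood at -1.53 ± 0.43, -1.46 ± 0.32 and -1.31 ± 0.23, and each differed from the gene before it in this order by less than the spread of the difference over the pools. Ephx1 at -1.09 ± 0.22 lay above Ugt2a1 in 20 of 21 pools, while it differed from Cyp2a5, at -0.94 ± 0.21, by less than the spread. Cyp2f2 at -0.74 ± 0.17 lay above Cyp2a5 in 20 of 21 pools, and Cyp1a2 was highest at -0.67 ± 0.17, by 0.06 ± 0.09 over Cyp2f2. All ratios were below 0 in all 21 pools. Of the 3 Cyp2 genes of chromosome 7, Cyp2g1 thus lay far below the others, at 22.2% of the input. Cyp2a5 stood at 52.0% and Cyp2f2 at 60.1%.

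**Figure D2:**
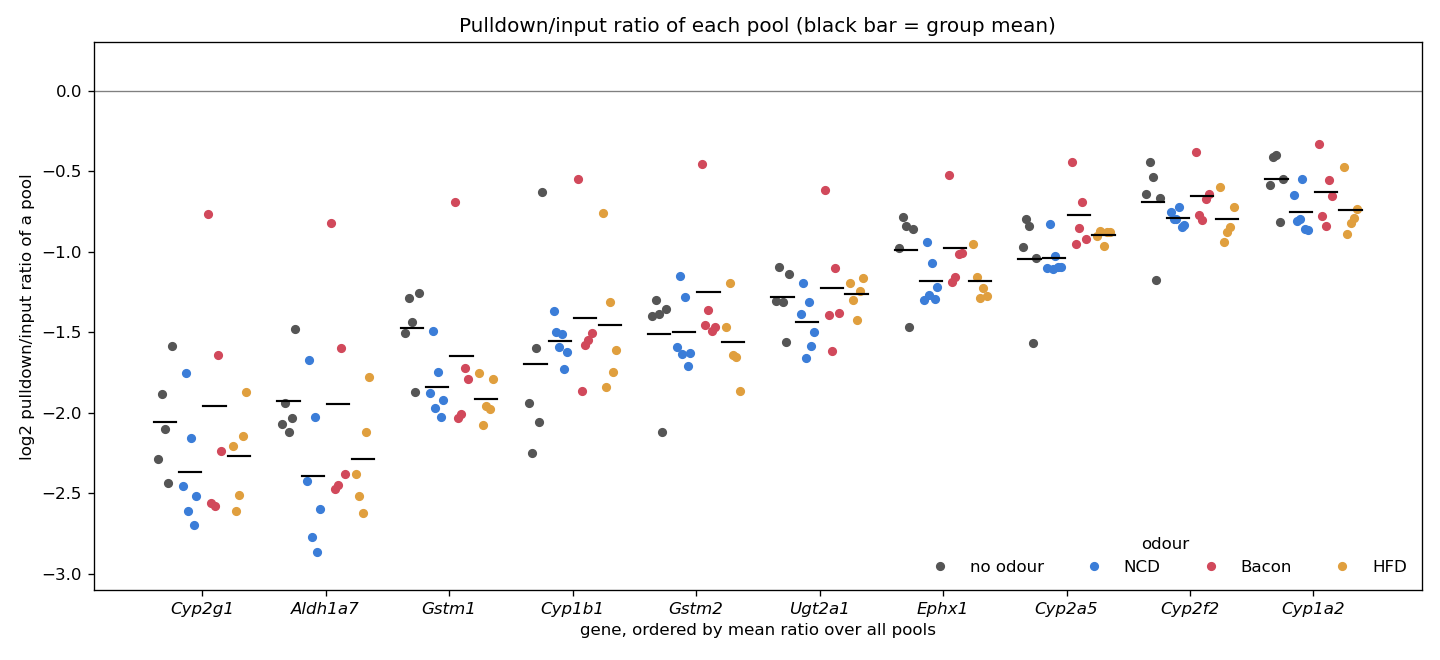
The log2 ratio of pulldown to input in each of the 21 pools for the 10 enzyme genes, ordered from the most to the least depleted, with 1 point a pool coloured by odour and black bars for group means. All points lie below 0, Cyp2g1 and Aldh1a7 have the lowest means (-2.17 and -2.15), and the highest Bacon point of each gene is replicate 1.

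The depletion was set beside that of other genes. In this comparison 16% of all genes were called lower and 35.8% in either direction. Among the 10 sustentacular markers 8 were called lower in the pulldown without odour and none higher, with a median log2 difference of -0.87. Ermn fell the most (-2.27, SE 0.24, adjusted p = 2.75e-07), followed by Sec14l3 (-1.77) and Cbr2 (-1.67), a carbonyl reductase, while Sox2 (-0.34) and Slc2a1 (-0.19) were not called. Of the 5 markers of horizontal basal cells, Trp63, Krt5 and Krt14 were called lower, with a median of -2.01 over the list. Markers of Bowman's glands were mixed, with 4 lower, 1 higher and a median of -0.29, and so were those of the respiratory epithelium, with 3 lower and 2 higher of 9 and a median of 0.06. Of the 10 markers of mature sensory neurons 5 were called higher and none lower (median 0.29), as were 5 of 8 of immature neurons and progenitors (median 0.59), all 5 erythroid markers were higher (median 2.11), and 5 of 6 myeloid markers were higher (median 1.36). The part that other cells had in the depletion of the enzymes was not tested.

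Other genes of the pathway were counted from 3 lists. Of 45 further genes of oxidation and hydrolysis, 25 were called lower and 2 higher, with a median log2 difference of -0.51. The 3 with the smallest p-values among those called were Cbr2, Cyp2j6 (-1.55, SE 0.14, adjusted p = 6.73e-09) and the P450 Cyp2b10 (-1.39, SE 0.14, adjusted p = 1.08e-08). Of 37 further conjugating enzymes 21 were lower and 1 higher (median -0.54), led by the sulfotransferase Sult1c1 (-1.83, SE 0.13, adjusted p = 1.81e-10) and the glutathione S-transferases Gstt3 (-1.17, SE 0.09) and Gstt1 (-1.72, SE 0.14). The higher ones were Cyp2u1 (0.54), the retinal reductase Dhrs3 (0.46) and Gsto2 (0.83), picked out once their values were known. Of 27 genes for xenobiotic receptors, redox targets and efflux pumps, 8 were lower and 3 higher (median -0.16), or 40.7% called in either direction, close to the 35.8% of all genes. The quinone reductase Nqo1 (-0.89, SE 0.06, adjusted p = 1.10e-11), Arnt (-0.60, SE 0.07), the partner of the aryl hydrocarbon receptor, and the transporter Abcc3 (-0.83, SE 0.11) had the smallest p-values there.

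**Figure D3:**
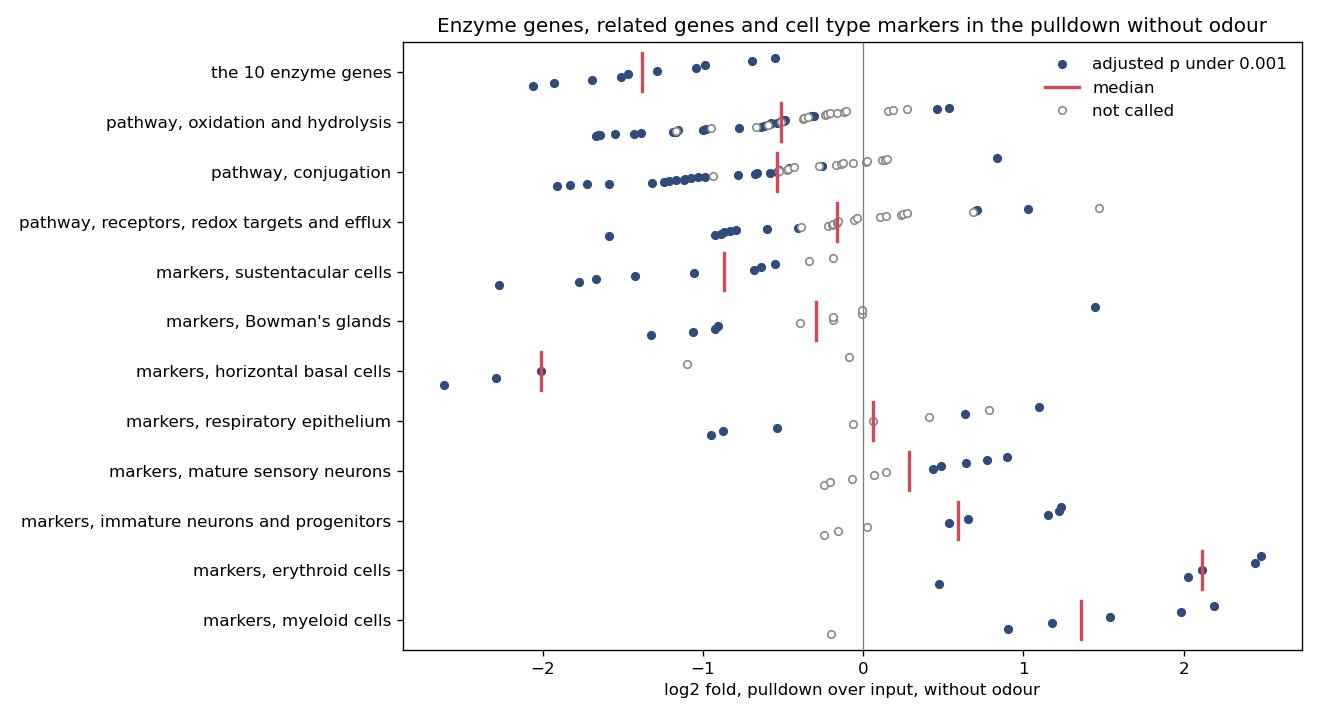
The log2 fold of pulldown over input without odour (horizontal axis) for the 10 enzyme genes, 3 lists of related genes and 8 lists of cell type markers, with 1 point a gene, filled where the adjusted p was under 0.001, and a red line at the median of each list. All 10 enzyme genes are filled and below 0, with a median of -1.38, and the erythroid list lies highest, with a median of 2.11.

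The odours were then compared by the change of the pulldown/input ratio over no odour. None of the 10 genes was called by edgeR under NCD, Bacon or HFD. Among all genes tested, 0.524% were called under NCD, 3.78% under Bacon and 1.22% under HFD, so the absence of calls among 10 genes lies near the background. At an unadjusted p under 0.05 there was 1 gene in each comparison: Gstm1 under NCD and HFD, and Cyp2a5 under Bacon. Of all genes 27.9%, 33.6% and 29.6% were under this limit for NCD, Bacon and HFD. DESeq2 also called none and had 1 gene at an unadjusted p under 0.05 in each. The 3 comparisons share the pools without odour.

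Gstm1 had the smallest adjusted p of these comparisons. Its log2 ratio was -1.51, -1.29, -1.44, -1.87 and -1.25 in the pools without odour and -1.75, -2.08, -1.96, -1.98 and -1.79 under HFD, where only the ratio of replicate 4 without odour fell among the HFD values. The change was -0.44 (SE 0.18, adjusted p = 0.103 by edgeR's quasi-likelihood test). Under NCD its ratio had a lowest value of -2.03, a median of -1.90 and a highest of -1.49, a change of -0.37 (SE 0.17, adjusted p = 0.169). Under Bacon it was -0.69, -2.03, -2.01, -1.72 and -1.79, and the change was -0.18 (SE 0.18, adjusted p = 0.533). Without Bacon replicate 1 this change was -0.42 (SE 0.12, adjusted p = 0.0121), still not called. Leaving out that library also lowered the adjusted p of the other comparisons by the same test, since all groups share 1 estimate of spread. The smallest among the 10 genes was then 0.00894 under HFD and 0.0236 under NCD, and no gene was called.

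For Cyp2a5 the difference under Bacon had the opposite sign. Its ratio was -0.97, -0.79, -0.84, -1.57 and -1.04 without odour and -0.44, -0.95, -0.85, -0.69 and -0.92 under Bacon, and the groups overlapped. The change was 0.27 (SE 0.12, adjusted p = 0.106), and 0.19 (SE 0.11, adjusted p = 0.247) without Bacon replicate 1. Without replicate 4 of the no-odour group, whose ratio was -1.57, no enzyme had a change above 0.20 under Bacon. The mean input of Cyp2a5 was 2339 CPM without odour and 2032 CPM under Bacon, and its mean pulldown was 1132 and 1201 CPM. Cyp2g1 had changes of -0.31 (SE 0.27), 0.09 (SE 0.29) and -0.21 (SE 0.28) under NCD, Bacon and HFD, with 95% intervals that reached from -0.88 to 0.70. Its pulldown levels under Bacon, 1936, 596, 670, 1297 and 759 CPM, spanned all the other groups. The intervals of Cyp2f2 were narrower, and its changes of -0.10, 0.04 and -0.10 had intervals that lay between -0.33 and 0.27, so that larger shifts of its ratio were outside the 95% range.

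Levels by odour are given here for Cyp2f2, Ugt2a1, Cyp1a2 and Ephx1 in both kinds of library. Cyp2f2 had input means of 1925 ± 299 (SD, n = 5), 2067 ± 94.7 (n = 6), 1870 ± 152 (n = 5) and 2056 ± 174 CPM (n = 5) for no odour, NCD, Bacon and HFD, and pulldown means of 1182 ± 75.9, 1195 ± 46.6, 1190 ± 103 and 1182 ± 77.4 CPM. Its pulldown means differed by less than the spread within any group. Ugt2a1 had input means of 1122 ± 98.8, 1206 ± 61.5, 1103 ± 79.2 and 1125 ± 81.1 CPM and pulldown means of 460 ± 37.4, 447 ± 59.2, 483 ± 125 and 469 ± 48.6 CPM in the same order. Cyp1a2 had input means of 481 ± 60.2, 502 ± 38.6, 457 ± 51.8 and 514 ± 52.2 CPM, and pulldown means of 327 ± 27.1, 297 ± 17.1, 295 ± 36.2 and 307 ± 28.2 CPM, the highest without odour. Ephx1, which opens reactive epoxides made by P450 enzymes, had input means of 111 ± 22.4, 113 ± 6.54, 96.9 ± 8.48 and 110 ± 10.9 CPM, and pulldown means of 55.2 ± 4.5, 49.7 ± 4.17, 49.7 ± 9.16 and 48.4 ± 2.86 CPM. For these genes the ratio changes over no odour ran from -0.20 (Cyp1a2 under NCD, SE 0.10, adjusted p = 0.182) to 0.06 (Ugt2a1 under Bacon, SE 0.13).

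Aldh1a7 and Cyp1b1, like Cyp2g1, had wide intervals. The log2 ratio of Aldh1a7 was -2.07, -1.94, -2.12, -2.03 and -1.48 without odour, and -0.82, -2.47, -2.45, -1.60 and -2.38 under Bacon, so that the Bacon pools lay on both sides of the others. Under NCD its ratio change was -0.46 (SE 0.29, 95% interval -1.06 to 0.14). The log2 ratio of Cyp1b1 was -1.94, -2.25, -1.60, -2.06 and -0.63 without odour and -0.55, -1.87, -1.58, -1.55 and -1.51 under Bacon, with the highest value of each group, from replicate 6 and replicate 1, well apart from the rest. Its ratio changes were 0.11 (SE 0.27), 0.29 (SE 0.27) and 0.21 (SE 0.28) under NCD, Bacon and HFD, and the interval under Bacon ran from -0.27 to 0.85. These bounds are not limits of detection, and the smallest change that would be called with these pools was not tested.

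Between the odours themselves, no enzyme was called either. Among all genes 0.0378% were called for HFD over Bacon, 0.0236% for HFD over NCD and 0.00945% for Bacon over NCD. Unadjusted p-values under 0.05 were found for none of the 10 genes in HFD over Bacon or HFD over NCD, by edgeR or DESeq2, and for 1, Cyp2a5, in Bacon over NCD by either. The Bacon-over-NCD changes were positive for all 10 genes, from 0.12 in Cyp1a2 to 0.46 (SE 0.29) in Aldh1a7, and the HFD-over-Bacon changes were negative for all 10. Both rested in part on Bacon replicate 1. Without it the Bacon-over-NCD change was positive in 8 of 10 genes with a median of 0.07 in place of 0.21, and none exceeded 0.19, and the HFD-over-Bacon change was positive in 2 of 10 with a median of -0.04 in place of -0.17.

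**Figure D4:**
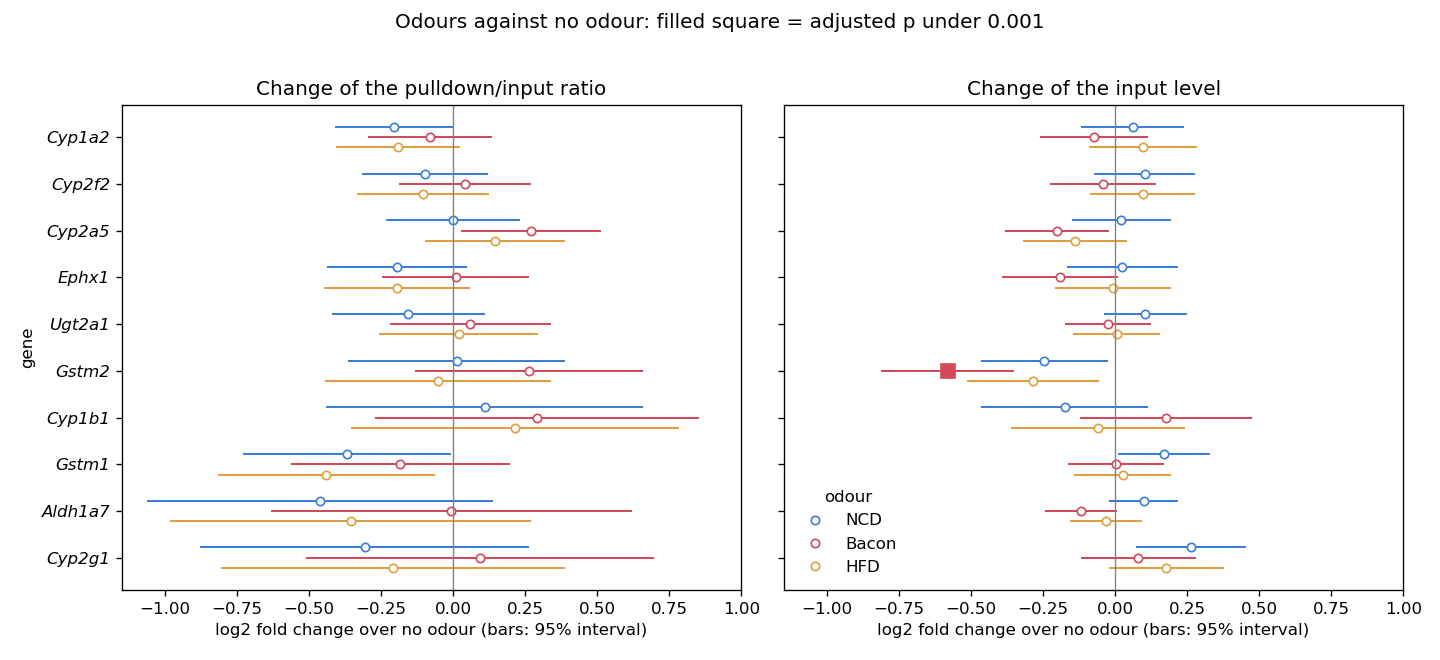
Log2 fold change of each odour over no odour with its 95% interval, for the pulldown/input ratio (left) and the input level (right) of the 10 enzyme genes. Squares are values with an adjusted p under 0.001, of which Gstm2 in the inputs under Bacon (-0.58) is the only one.

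The pulldown of Bacon replicate 1 stood apart from the other 4 of its group. All 10 genes lay above their group mean there, by 0.59 on the log2 scale on average, with Gstm1 at 2878 CPM against 1203, 1245, 1551 and 1393 in replicates 2 to 5, and Gstm2 at 92.3 against 48.6, 45.6, 50.7 and 51.2. In the same library the sum of the sustentacular markers was 2678 CPM, against 1081 to 1405 in the other Bacon pulldowns, and that of the basal cell markers was 39.8 CPM, against 8.43 to 16.6. Its erythroid sum was the lowest of the group, at 1330 against 2276 to 2866 CPM. Mitochondrial transcripts other than ribosomal RNA took 0.456% of its counts, the most of any pulldown.

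The other pulldowns followed the same order in part. The 5 with the highest mitochondrial share, from 0.196% to 0.456%, were also the 5 in which the enzymes were highest against their group means, with 7 to 10 of the 10 genes above the mean. These were Bacon replicates 1 and 4, NCD replicate 2, HFD replicate 6 and replicate 6 without odour. In the other 16 pulldowns the share was 0.0326% to 0.140% and the mean deviation of the enzymes between -0.34 and 0.06 on the log2 scale. The part of this share in the enzyme levels was not tested. In a fit with the share as a covariate, chosen after seeing the data, all 10 genes were called lower in the pulldown without odour, with log2 differences from -2.10 to -0.56, and none was called for an odour. Without Bacon replicate 1, the change of the ratio under Bacon was positive in 3 of 10 genes in place of 7 of 10, with a median of -0.10 in place of 0.05, and no gene was called.

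**Figure D5:**
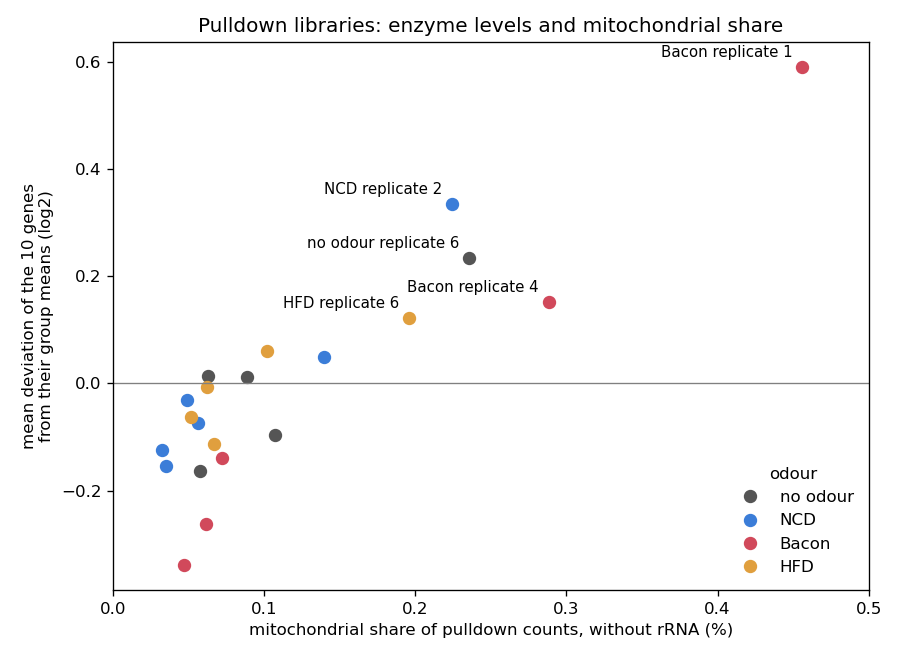
Mean deviation of the 10 enzyme genes from their group means (log2, vertical) against the share of counts on mitochondrial genes without ribosomal RNA (percent, horizontal) in the 21 pulldown libraries, coloured by odour. Bacon replicate 1 lies at 0.456% and 0.59, and the 5 libraries with the largest shares are named.

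In the inputs, which hold the RNA of the whole tissue, Gstm2 under Bacon was the only enzyme called for an odour. Without odour its input levels were 179, 186, 177, 272 and 177 CPM, and under Bacon they were 126, 133, 117, 143 and 142 CPM. All 5 Bacon inputs lay below all 5 inputs without odour, and replicate 4 without odour stood far above its group. The log2 change was -0.58 (SE 0.11, adjusted p = 0.00033 by edgeR's quasi-likelihood test). Under HFD its levels were 151, 125, 165, 174 and 197 CPM, with a change of -0.29 (SE 0.11, adjusted p = 0.0692), and under NCD they had a lowest value of 151, a median of 168 and a highest of 179 CPM, with a change of -0.25 (SE 0.11, adjusted p = 0.0994). Among all genes, 13.1% were called in Bacon inputs over no odour and 7.92% were lower, so that 1 lower call among 10 enzymes lies near these shares.

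The Gstm2 call was not firm. It was lost without Bacon replicate 1 (-0.57, adjusted p = 0.00121) and without Bacon replicate 3 (-0.54, adjusted p = 0.0016), and it had a change of 0.00 (SE 0.17, adjusted p = 0.999) when the share of ribosomal RNA was a covariate. That share did not overlap between these groups, at 21.7% to 32.2% without odour and 10.6% to 14.5% under Bacon, and the odour and the share cannot be told apart here. Without replicate 4 of the no-odour group the change was -0.46 and remained called. Between the odours, the Bacon inputs of Gstm2 lay below all NCD inputs, with a change of -0.34 (SE 0.11, adjusted p = 0.0806). So did the Bacon inputs of Gstm1, at 4638 to 5112 CPM against 5271 to 5802 CPM under NCD. How many of all genes separated in this way was not counted.

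Gstm1, next to Gstm2 on chromosome 3, is given beside it. Its inputs under Bacon were 4638, 4916, 4997, 5112 and 4818 CPM against 4575, 4439, 4538, 5939 and 4947 without odour, with a change of 0.00 (SE 0.08, 95% interval -0.16 to 0.17). The difference between the changes of Gstm1 and Gstm2 was itself not tested. In the pulldowns all 5 HFD values lay below all 5 values without odour for both genes. They were 1267 to 1424 against 1610 to 2076 CPM for Gstm1 and 53.1 to 55.5 against 62.6 to 75.7 CPM for Gstm2. The share of all genes whose pulldowns separated in this way was not counted. Ribosomal RNA took a mean of 13.4% of the counts in the HFD pulldowns and 23.9% in those without odour. The pulldown level alone was not fitted, and the ratio of neither gene was called under HFD, where 1.22% of all genes were.

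No other enzyme was called in the inputs. Among all genes 0.968% were called under NCD and 0.935% under HFD. Cyp2g1 under NCD came nearest, at a lowest value of 3966, a median of 4175 and a highest of 4521 CPM against 2945 to 4447 without odour, with a change of 0.26 (SE 0.09, adjusted p = 0.0433). Unadjusted p-values under 0.05 were found for 3 enzymes under NCD (Cyp2g1, Gstm1 and Gstm2), for 1 under HFD (Gstm2) and for 2 under Bacon (Gstm2 and Cyp2a5), where 34.8%, 34% and 46.1% of all genes were. DESeq2 gave 3, 1 and 3, with Gstm2 under Bacon as its only call. Cyp1a2, an aryl hydrocarbon receptor target in liver, had input changes of 0.06, -0.07 and 0.10 under NCD, Bacon and HFD, with intervals between -0.26 and 0.28, and Cyp1b1, another target of this receptor, had changes of -0.18, 0.18 and -0.06, with intervals between -0.47 and 0.47.

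Between the odours, the inputs of the enzymes gave no call. Among all genes 0.104% were called for Bacon over NCD, 0.0803% for HFD over Bacon and 0.0567% for HFD over NCD, and none of the enzymes was. In Bacon over NCD 9 of 10 enzymes had negative changes. An unadjusted p under 0.05 was found for 6 of 10 by edgeR and 8 of 10 by DESeq2, where 21.5% and 22.4% of all genes had one. Most of the enzymes varied together over the inputs, so these are not counts of independent genes. Aldh1a7 came nearest with a change of -0.22 (SE 0.06, adjusted p = 0.0462 by edgeR). Its inputs were 99.9, 104, 102, 115 and 103 CPM under Bacon, and 112 to 127 CPM with a median of 124 under NCD. Cyp1b1 went the other way, with 5.78 to 7.24 CPM under Bacon above all NCD inputs at 4.64 to 5.75 CPM (change 0.35, SE 0.14, adjusted p = 0.142). In HFD over Bacon and in HFD over NCD 1 enzyme each had an unadjusted p under 0.05 by edgeR, Gstm2 and Aldh1a7, and by DESeq2 1 and 3 had. By edgeR 18.2% and 6.51% of all genes were under this limit in these comparisons.

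The related genes were counted in the same way in the Bacon inputs. Of the 37 conjugating enzymes 7 were called lower in Bacon inputs over no odour and none higher, led by Gsto1 (-0.55, SE 0.09, adjusted p = 6.21e-05), Gstk1 (-0.56, SE 0.11, adjusted p = 0.000239) and Mgst3 (-0.70, SE 0.13, adjusted p = 0.00031), which all conjugate or reduce with glutathione. Of the 45 genes of oxidation and hydrolysis 3 were lower, Cbr2 (-0.48), the electron carrier Cyb5a (-0.50) and the aldehyde reductase Akr1a1 (-0.47). Of the 27 receptors, redox targets and efflux pumps 4 were lower and 1 higher: heme oxygenase Hmox1 (-0.57, SE 0.09), glutathione reductase Gsr (-0.34, SE 0.06) and the glutathione peroxidases Gpx2 (-0.74, SE 0.14) and Gpx1 (-0.66, SE 0.14) were lower, and Ahr (0.37, SE 0.07), the aryl hydrocarbon receptor, was higher. Gpx1 and Ahr were picked out once their values were known. The share called was 13.1% of all genes in this comparison, against 18.9% of the conjugating enzymes, 6.67% of the oxidizing enzymes and 18.5% of the third list, and no test of these shares was made. With the share of ribosomal RNA as a covariate, 0.0236% of all genes were called in this comparison. Under NCD and HFD none of these genes was called in the inputs. For the pulldown/input ratio, Nqo1 under Bacon was the only call of the 3 lists over the 3 odours (0.44, SE 0.08, adjusted p = 0.00071). Of all genes 3.78% were called for this ratio under Bacon, so a single call in these lists is no excess. With the share of ribosomal RNA as a covariate, 0.113% of all genes were called for it.

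The enzymes varied together from pool to pool. In the inputs, after subtraction of group means, replicate 4 without odour lay above its group for all 10 genes, by 0.29 on the log2 scale on average, and with Gstm2 at 272 and Cyp2a5 at 2912 CPM, while HFD replicate 1, NCD replicate 4 and replicate 1 without odour lay below theirs for all 10. Over the 21 inputs each enzyme was correlated with the mean of the other 9, Cyp2f2 the closest (Pearson r = 0.96) and Gstm2 the least of those with a positive value (r = 0.64), and Cyp1b1 apart from them (r = -0.12). With this value and its low level, Cyp1b1 went against the label of a supporting-cell enzyme in these inputs. The genes outside the list with the most similar pattern to the 10 were Pon1 (r = 0.96), Anxa1 (r = 0.96), Adh1 (r = 0.95), Hspb1 (r = 0.95) and Rtn3 (r = 0.95). Of these, Adh1 is an alcohol dehydrogenase and Pon1 a lactonase and esterase. The next in order was Gapdh (r = 0.94), added once its value was known. Of the genes outside the list, 6.48% had an r at least as high as that of Gstm2 and 3.01% as that of Cyp2a5. These correlations are over 21 libraries that share their scaling and depth, and they are given as a description.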

How the data were processed

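RNA of the main olfactory epithelium was measured in 21 pools, each as a pulldown and an input. The authors quantified the reads against GRCm38 with nf-core's RNA-seq pipeline and Salmon, and deposited estimated counts per gene, not normalized. Replicates were not pooled. Of the values, 30.9% were not whole numbers, and they were rounded before the fits. Genes were matched to 44118 names of GENCODE M21.

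Counts were filtered with filterByExpr (minimum count 10), scaled with TMM and fitted with edgeR 4.0.16 (robust quasi-likelihood, R 4.3.3). The ratio was fitted over 42 libraries with a term for each pool and for the pulldown within each odour, and the input level over 21 inputs with the odour. All p-values are two-sided and Benjamini-Hochberg adjusted over the 21168 genes tested, and a call is an adjusted p under 0.001. Log2 ratios per pool used a prior count of 2. The fits were checked on simulated counts. Alternatives were DESeq2 1.42.0, other scalings, filters and covariates, and leaving out each pool. Pulldown and input were paired by the sample number in the labels, since the study set each pulldown against the input of its own sample, and after group means were subtracted each pulldown was correlated with the input of its pool at a median of 0.01 across genes. No pair of libraries of a group differed by as little as sampling noise. P-values measure the spread between pools.

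All 10 genes are named, with up to 3 genes of each related list that had the smallest p among those called in a comparison, and the 5 genes most similar over the inputs. The genes and lists were chosen with earlier results of these data known.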

Additional observations from a re-analysis of the deposited data

Results flagged for a closer look

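For each enzyme, the highest or lowest library of a group was compared with the others by Dixon's criterion, for the log2 pulldown/input ratio, the input level and the pulldown level. Of 120 groups tested, 18 held a library past the 95% limit, where chance gives about 1 in 20, and the same few libraries recurred. The pulldown of Bacon replicate 1 gave the most. Its log2 ratio was -0.55 for Cyp1b1 (median of the others -1.56), -0.53 for Ephx1 (-1.09), -0.69 for Gstm1 (-1.90) and -0.45 for Gstm2 (-1.46), and its pulldown level was 4.86 CPM for Cyp1b1 (2.16), 2878 CPM for Gstm1 (1319) and 92.3 CPM for Gstm2 (49.6).

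Replicate 4 without odour stood apart in its input, with 2912 CPM for Cyp2a5 against a median of 2199 in the others and 272 CPM for Gstm2 against 178, and its log2 ratio was -2.12 for Gstm2 (-1.37) and -1.47 for Ephx1 (-0.85). Replicate 6 without odour had a log2 ratio of -1.48 for Aldh1a7 (-2.05) and a pulldown level of 1276 CPM for Cyp2g1 (761). NCD replicate 2 had a log2 ratio of -0.83 for Cyp2a5 (-1.10) and pulldown levels of 1343 CPM for Cyp2g1 (731) and 2064 CPM for Gstm1 (1447). The input of Bacon replicate 4 had 115 CPM of Aldh1a7 (102), and that of HFD replicate 1 had 1752 CPM of Cyp2f2 (2129). The causes were not tested.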

How the results depend on the processing

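All 10 enzymes were called lower in the pulldown without odour under every alternative run, and no change of the pulldown/input ratio was called under any. The input results moved more. For Bacon over no odour the count of 1 became 0 with the share of ribosomal RNA as a covariate, 0 with only the groups compared in the fit (Gstm2 -0.59, adjusted p = 0.0021), and 0 with the mitochondrial share as a covariate, chosen after seeing the data (Gstm2 -0.66, adjusted p = 0.0072). The calls over all genes in this comparison fell as well, from 13.1% to 0.0236%, 3.48% and 3.16% in this order. Leaving out each pool gave 0 to 1, with 0 without Bacon replicate 1 or Bacon replicate 3. At an adjusted p under 0.05, NCD over no odour gave 1 (Cyp2g1) in place of 0 and Bacon over NCD gave 1 (Aldh1a7) in place of 0, and with only the groups compared Bacon over NCD gave 1 (Gstm2, -0.33, adjusted p = 0.00022), where 2.93% of all genes were called in place of 0.104%. With the share of ribosomal RNA as a covariate 4 input changes over no odour turned positive: Gstm2 under NCD (0.16), Bacon (0.0043) and HFD (0.13), and Cyp2a5 under Bacon (0.13). The causes were not tested.

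The replicate numbers are shared across odours. Inputs with the same number had a median correlation of deviations of 0.02 (range -0.15 to 0.16 over 27 pairs). The pulldown and input of the same pool had a median of only 0.01 by this measure. It therefore cannot show whether the number stands for a shared batch. With the number as a replicate block, 10 enzymes were lower in the pulldown without odour, 0 ratio changes were called, and 1 input change was, Gstm2 under Bacon (-0.57, adjusted p = 0.00073). Without a term for the pool the counts were 10 and 0. The precision is limited by 5 or 6 pools a group, by reads shared between gene copies for Ugt2a1 and Cyp2a5, and by the low counts of Cyp1b1, and all values are relative to the RNA of the library, not per cell.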
